A study of Nicotiana tabacum with 6 samples.

Results

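This account covers the genes of iron and zinc uptake and handling in tobacco seedlings. Nicotiana tabacum, the cultivated species, is an allotetraploid, so that many genes have a copy from each ancestor. They were taken from the deposited count table by the first name of each gene's symbol, in the families F6'H, FRO, IRT, ZIP, NRAMP, YSL, HMA, VIT, NAS and OPT3. The rule found 117 of the 69500 genes in the table. There were 8 F6'H, 27 FRO, 3 IRT, 25 ZIP, 9 NRAMP, 27 YSL, 16 HMA and 2 VIT genes, and 0 genes for NAS and for OPT3. The symbols are those of the best known relative, mostly from Arabidopsis and for YSL6 and YSL9 from rice, so that several tobacco genes share 1 symbol and the gene identifier is given with each.

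Low nitrogen seedlings received 0.75 mM ammonium nitrate in a Hoagland-type solution for 15 days, and control seedlings received 7.5 mM. Both sets had fresh solution every 7 days, and there were 3 libraries in each. The variety, the age and the organ are not given, the material being named only as seedling, and the labels do not say whether different plants went into each library. The p-values therefore measure only the spread between these 6 libraries, part of which may be technical. The iron and zinc content of the solution is not stated.

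Iron is abundant in most soils but poorly soluble, and plants outside the grasses obtain it by a reduction strategy. Roots release protons and coumarins such as scopoletin derivatives, which mobilise ferric iron. Reductases of the FRO family convert it to the ferrous form at the cell surface, and carriers of the ZIP family, of which IRT proteins are a branch, bring ferrous iron and zinc into the cell. NRAMP carriers move iron and manganese across the plasma membrane or out of the vacuole, and YSL carriers move metals bound to nicotianamine. HMA proteins are ATP-driven pumps for zinc or copper, and VIT carriers store iron in the vacuole. In Arabidopsis this system is switched on by basic helix-loop-helix (bHLH) transcription factors when iron is short.

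The libraries held 13027374 to 15620067 counts, of which 23213 to 42345 belonged to the 117 genes. Levels are given as CPM, which scales each library's counts to a common total, after TMM scaling. They are not corrected for gene length, so they are compared between libraries and not between genes. Control replicate 3 stood apart, with correlations of 0.937 and 0.931 with control replicates 1 and 2 across genes (log2 CPM), against 0.971 between those 2. Its correlations with low nitrogen replicates 1 to 3 were higher, at 0.943, 0.950 and 0.948. Low nitrogen replicate 3 correlated at 0.948 with low nitrogen replicate 1 and at 0.950 and 0.954 with control replicates 1 and 2, so these correlations did not sort the libraries into their groups. As for green tissue, the 71 light-harvesting genes that mark it summed to 425, 195 and 65.1 CPM in low nitrogen replicates 1 to 3, and 61.4, 34.3 and 962 CPM in control replicates 1 to 3, with 4 of the 71 at 0 counts everywhere. The summed level of 24 root marker genes, 1 of them at 0, was 881 to 1050 CPM in low nitrogen and 788 to 1157 CPM in control. The part of this unequal makeup in the results below was not tested, and in such whole samples fewer cells of a type and less RNA per cell cannot be told apart.

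Of the 117 genes, 76 had enough counts to be tested. The other 41 comprised 17 with no count in any library and 24 with at most 95 counts in all. With edgeR's quasi-likelihood test, adjusted by Benjamini-Hochberg over the 38482 genes tested, 0 of the 76 passed a threshold of 0.05, the smallest adjusted p being 0.255. The same was true of the whole table (0% of genes called, smallest adjusted p 0.138). At an unadjusted p under 0.05 there were 18 of the 76, where all genes tested gave 11.8%. Of these 15 were higher in low nitrogen (19.7%, against 6.1% of all genes tested) and 3 were lower (3.95%, against 5.66%). limma-voom called 0 members (0% of all genes). At an unadjusted p under 0.05 it had 11 members higher and 2 lower, with 6.01% and 5.61% of all genes. Leaving out control replicate 1 brought the count of 15 to 8, leaving out low nitrogen replicate 2 to 9, and leaving out low nitrogen replicate 3 to 24. The share of all genes higher moved with it, to 2.87%, 4.63% and 7.25% in these settings.

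The 3 low nitrogen libraries did not overlap the 3 control libraries for 17 of the 76 genes. They lay above the controls in 13 (17.1%, against 9.66% of all genes tested) and below them in 4 (5.26%, against 8.54%). The fold change was above 0 in 56 of the 76 (73.7%, against 50.3% of all genes), and the median was 0.31 on the log2 scale, against 0.00 over all genes. Genes with too few counts in the controls could enter through low nitrogen alone, so these shares are a description. DESeq2, a second count test, called 2 members, both higher in low nitrogen, where it called 1.53% of all genes, 0.709% higher and 0.819% lower.

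**Figure D1:**
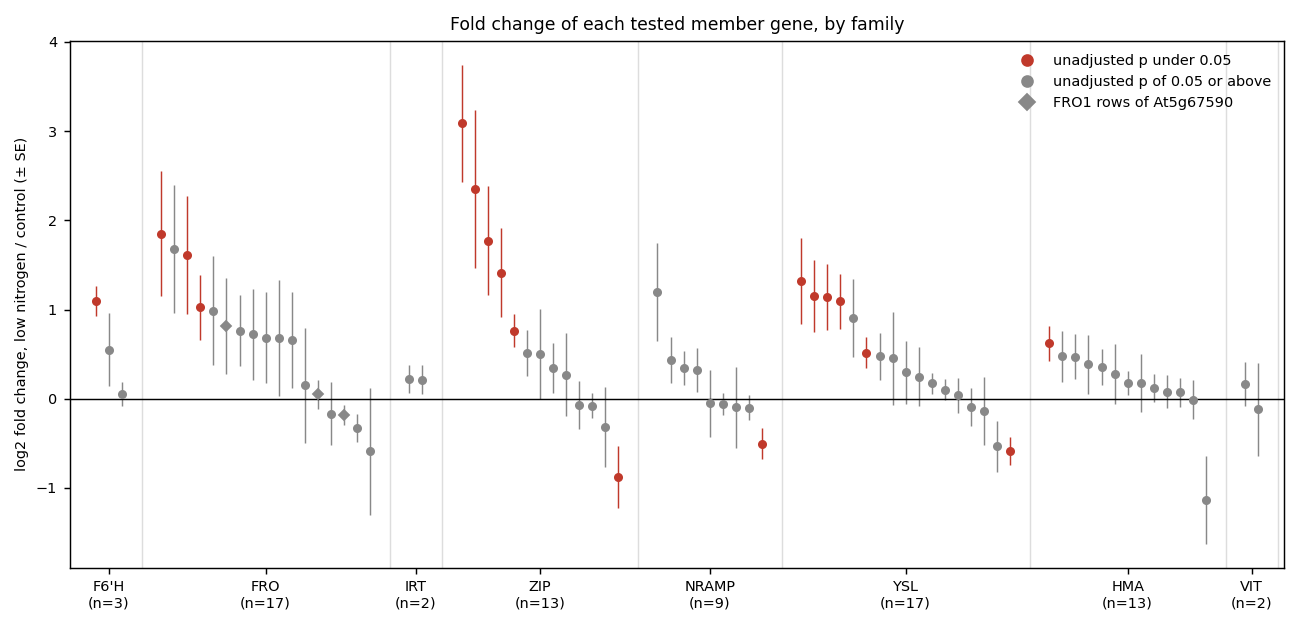
Log2 fold change (low nitrogen over control) of the 76 tested genes by family, with the standard error of the edgeR fit (3 libraries per group). Red marks the 18 genes at an unadjusted p under 0.05, 15 of them above 0, and diamonds mark the 3 FRO1 genes of locus At5g67590.

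The gene with the smallest p of the set was an F6'H1 gene. F6'H1 is feruloyl-CoA 6'-hydroxylase, the enzyme that directs phenylpropanoid precursors into scopoletin and the coumarins made from it. F6'H1 (Nitab4.5_0001401g0120) was at 116, 109 and 120 CPM in low nitrogen replicates 1 to 3, against 42.7, 64.1 and 55.0 CPM in control replicates 1 to 3. All 3 low nitrogen libraries lay above all 3 controls, close to each other. The means were 115.2 ± 5.37 CPM in low nitrogen and 53.9 ± 10.7 CPM in control (SD, n = 3), a 2.14-fold difference and a log2 fold change of 1.09 (SE 0.17, edgeR unadjusted p 0.00033, adjusted p 0.255). DESeq2 called this gene as having risen (adjusted p 3.62e-05), and its call held when each library was left out in turn (adjusted p 5.06e-06 to 0.00578). Low nitrogen replicate 1 and control replicate 3 held the most light-harvesting transcripts of their groups. With that pair left out the log2 fold change by DESeq2 was 1.09 (adjusted p 0.0121).

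No other F6'H1 gene was at an unadjusted p under 0.05. F6'H1 (Nitab4.5_0000797g0160) was at 20.4, 23.2 and 19.1 CPM in low nitrogen and 18.8, 21.9 and 19.7 CPM in control, with a log2 fold change of 0.06 (SE 0.14), a value that was -0.025 without low nitrogen replicate 2. F6'H1 (Nitab4.5_0002567g0090) was at 1.96, 5.25 and 5.76 CPM in low nitrogen, against 3.17, 3.08 and 2.62 CPM in control, so that low nitrogen replicate 1 was the lowest of the 6 libraries and the other two were the highest. Another gene, F6'H1 (Nitab4.5_0000215g0020), held 4, 2 and 3 counts in low nitrogen and 0, 24 and 30 in control and was not tested over the 6 libraries. F6'H1 (Nitab4.5_0003745g0030) held 2, 3 and 2 counts in low nitrogen and 4, 3 and 2 in control. The remaining 3 (Nitab4.5_0002161g0040, Nitab4.5_0002369g0030 and Nitab4.5_0008936g0010) held 0 counts in every library. The family sum was therefore set mainly by 1 gene. It was 139, 138 and 145 CPM in low nitrogen, against 65.0, 91.1 and 79.6 CPM in control.

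The FRO symbols covered genes of different kinds. Among the 27 rows, 3 with the symbol FRO1 carry the Arabidopsis locus At5g67590. That locus is FROSTBITE1, a subunit of the mitochondrial NADH dehydrogenase that only shares the abbreviation. Their summed level was 99.5, 100 and 120 CPM in low nitrogen, against 117, 108 and 109 CPM in control. FRO1 (Nitab4.5_0004242g0010), one of them, was at 53.5 ± 2.64 CPM in low nitrogen and 60.6 ± 0.875 CPM in control (SD, n = 3; log2 fold change -0.18, SE 0.11, edgeR unadjusted p 0.151). The other 24 rows are ferric reductases and gave 516, 368 and 174 CPM in low nitrogen, against 171, 240 and 122 CPM in control. Low nitrogen replicates 1 and 2 lay above all controls, and low nitrogen replicate 3 lay within their range. The difference of the mean log2 sums was 0.91, with a pooled SD of 0.66 between replicates, and it was 0.31 without control replicate 3 and low nitrogen replicate 1. Leaving out 1 library at a time gave 0.55 to 1.35.

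Of these 24 ferric reductase genes 14 were tested, 11 of them with positive fold changes, and their median was 0.70 on the log2 scale. The 3 at an unadjusted p under 0.05 were all higher in low nitrogen (21.4% of the 14, against 6.1% of all genes tested). FRO1 (Nitab4.5_0001269g0070) was at 36.1, 15.1 and 5.34 CPM in low nitrogen, against 6.90, 6.53 and 2.27 CPM in control (log2 fold change 1.85, SE 0.70, edgeR unadjusted p 0.0319, DESeq2 adjusted p 0.132). FRO1 (Nitab4.5_0012157g0030) was at 107, 44.7 and 17.3 CPM in low nitrogen, against 11.4, 30.6 and 13.2 CPM in control (1.61, SE 0.66, unadjusted p 0.0441). FRO1 (Nitab4.5_0006942g0040) was at 48.3, 30.4 and 18.2 CPM in low nitrogen, against 12.02, 14.6 and 21.0 CPM in control (1.02, SE 0.37, unadjusted p 0.0259). In all 3 genes low nitrogen replicate 1 was the highest library, replicate 3 overlapped the controls, and the groups as a whole overlapped. Without low nitrogen replicate 1 their log2 values were 0.95, 0.74 and 0.60. Without low nitrogen replicate 3 they were 2.29, 2.04 and 1.31.

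Several reductase genes have identifiers that share a number and so lie on 1 scaffold. Both tested FRO1 genes of scaffold 0001269 were highest in low nitrogen replicate 1, and the scaffold sum was 189, 67.7 and 27.3 CPM in low nitrogen, against 23.2, 46.97 and 16.4 CPM in control. All 6 tested reductase genes of scaffolds 0000084 and 0000572 were highest in low nitrogen replicate 2 and lowest in control replicate 3. The sums over all rows, tested or not, were 55.4, 75.6 and 32.4 CPM in low nitrogen for scaffold 0000084, against 38.7, 47.7 and 9.06 CPM in control. For scaffold 0000572 they were 97.1, 127 and 59.9 CPM in low nitrogen, against 66.4, 80.8 and 24.3 CPM in control. Control replicate 3 was the lowest library for 8 of the 14 tested reductases. Neighbours of this kind can be close copies, and how reads shared by copies were counted is not known, so their separate values are uncertain. FRO1 (Nitab4.5_0001793g0150) lay the other way, at 4.97, 4.37 and 3.54 CPM in low nitrogen and 2.84, 1.88 and 14.6 CPM in control, highest in the control library richest in light-harvesting transcripts. FRO1 (Nitab4.5_0000583g0340) had a log2 value of -0.17. FRO1 (Nitab4.5_0003703g0010) was at 9.31, 9.37 and 11.3 CPM in low nitrogen, against 12.3, 11.8 and 13.4 CPM in control (-0.32, SE 0.16, edgeR unadjusted p 0.0763). Of the 14 it alone had no overlap between groups (7.14% lower, against 8.54% of all genes tested). FRO6, a reductase of green tissue in Arabidopsis, held 3 counts at most for either of its 2 genes.

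**Figure D2:**
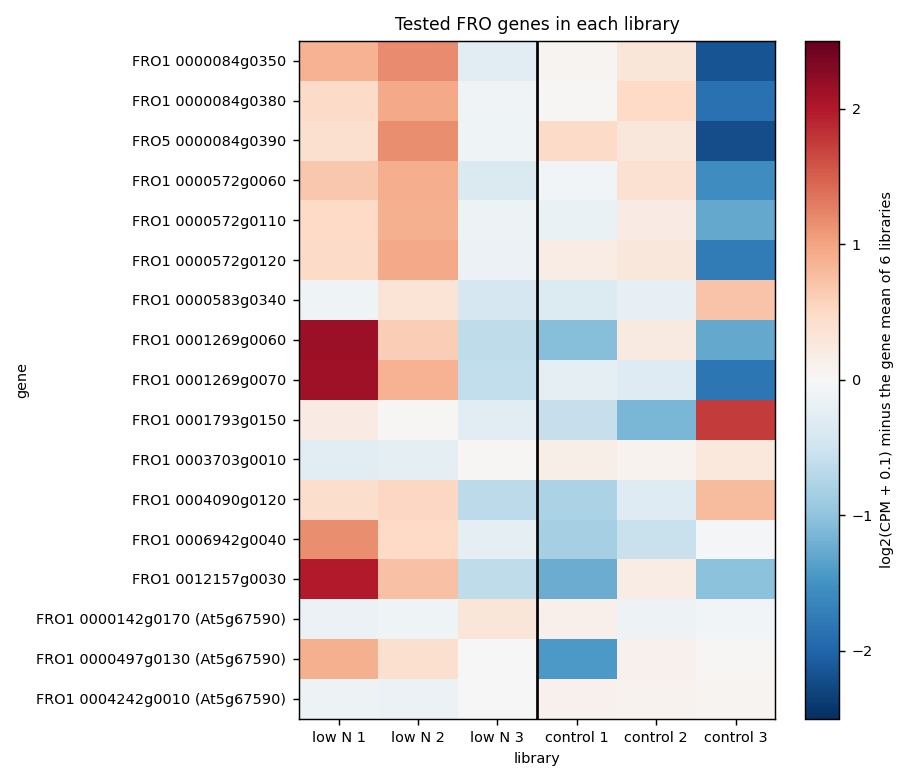
Level of the 17 tested FRO genes in each library, as log2(CPM + 0.1) minus the mean over the 6 libraries, red above and blue below that mean. The black line parts low nitrogen (left) from control libraries. The tested genes of scaffolds 0000084 and 0000572 are lowest in control 3, those of 0001269 and 0012157 are highest in low nitrogen 1, and the 3 At5g67590 genes stand at the bottom.

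Among the IRT genes, IRT1, the main root iron carrier of Arabidopsis, was represented by 1 gene (Nitab4.5_0013314g0020) with 0 counts in all 6 libraries, which allows up to 0.187 to 0.210 CPM in the low nitrogen libraries and 0.212 to 0.244 CPM in the control libraries (3 counts, counting error only). The 2 IRT3 genes, named after a carrier of zinc and iron, overlapped between the groups. IRT3 (Nitab4.5_0003621g0010) was at 74.6 ± 6.23 CPM in low nitrogen and 64.3 ± 10.9 CPM in control (SD, n = 3; log2 fold change 0.21, SE 0.16). IRT3 (Nitab4.5_0001367g0030) was at 66.8 ± 7.97 CPM in low nitrogen and 57.4 ± 8.16 CPM in control (0.22, SE 0.16). Both had an edgeR adjusted p above 0.59 (0.610 and 0.594).

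The largest fold change of the set belonged to a ZIP10 gene whose identifier is next to that of IRT1. ZIP10 (Nitab4.5_0013314g0010), a member of the zinc and iron carrier family, was at 86.0, 46.5 and 11.7 CPM in low nitrogen replicates 1 to 3, against 6.82, 5.40 and 4.74 CPM in control replicates 1 to 3. The low nitrogen libraries were widely spread, yet the lowest of them exceeded the highest control. The means were 48.0 ± 37.2 CPM in low nitrogen and 5.66 ± 1.06 CPM in control (SD, n = 3), with a fitted fold of 8.50 and a log2 fold change of 3.09 (SE 0.66, edgeR unadjusted p 0.002, adjusted p 0.332). DESeq2 called this gene as having risen (adjusted p 4.71e-05). The call held with each library left out in turn, the adjusted p being largest without control replicate 3 (0.0462) and smallest without low nitrogen replicate 3 (2.12e-18). The DESeq2 log2 value was 2.34 without low nitrogen replicate 1, and 2.23 without both that library and control replicate 3 (adjusted p 0.00487).

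A second abundant ZIP10 gene had the same order of low nitrogen libraries. ZIP10 (Nitab4.5_0004275g0010) was at 80.0, 33.5 and 11.9 CPM in low nitrogen, against 10.2, 15.2 and 11.4 CPM in control. Low nitrogen replicate 3 lay among the controls, so the groups overlapped (log2 fold change 1.77, SE 0.61, edgeR unadjusted p 0.0218, DESeq2 adjusted p 0.0776). The log2 value was 0.88 without low nitrogen replicate 1. The other 4 ZIP10 genes were too sparse to test. ZIP10 (Nitab4.5_0003027g0080) held 14, 8 and 1 counts in low nitrogen and 1, 1 and 0 in control. ZIP10 (Nitab4.5_0000752g0020) held 13, 1 and 6 counts in low nitrogen and 4, 2 and 27 in control, and Nitab4.5_0003027g0070 and Nitab4.5_0004275g0040 held at most 4 counts in any library.

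Of the 13 tested ZIP genes 9 had positive fold changes, and the median was 0.50 on the log2 scale. At an unadjusted p under 0.05 there were 5 higher (38.5%, against 6.1% of all genes tested) and 1 lower (7.69%, against 5.66%). ZIP3, a zinc carrier of the root in Arabidopsis, supplied 3 of the 5. ZIP3 (Nitab4.5_0002862g0020) was at 19.7, 17.3 and 17.6 CPM in low nitrogen, against 10.6, 8.55 and 13.03 CPM in control, with tight low nitrogen values and no overlap (log2 fold change 0.76, SE 0.18, edgeR unadjusted p 0.00386, DESeq2 adjusted p 0.0624). ZIP3 (Nitab4.5_0000170g0410) was at 0.979, 1.75 and 1.32 CPM in low nitrogen, against 0.568, 0.225 and 0.708 CPM in control. ZIP3 (Nitab4.5_0006169g0020) was at 0.979, 6.18 and 0.902 CPM in low nitrogen, against 0.244, 0.750 and 0.566 CPM in control. Low nitrogen replicate 2 stood far above the rest in this gene, whose log2 fold change was 2.35. In control replicates 1 to 3 these sparse ZIP3 genes held 7, 3 and 10 counts (Nitab4.5_0000170g0410) and 3, 10 and 8 counts (Nitab4.5_0006169g0020). Both could pass the filter on low counts through low nitrogen alone, so neither is independent of that filter. The other tested ZIP3 genes had log2 values of -0.08 to 0.50.

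ZIP2 genes differed among themselves. In Arabidopsis ZIP2 has been tied to zinc and manganese transport in the root. ZIP2 (Nitab4.5_0008249g0040) was at 6.30, 11.1 and 7.56 CPM in low nitrogen, against 13.4, 22.6 and 9.84 CPM in control, overlapping in 1 library of each group (log2 fold change -0.88, SE 0.35, edgeR unadjusted p 0.0382). ZIP2 (Nitab4.5_0003876g0010) was at 29.3, 44.3 and 58.8 CPM in low nitrogen, against 32.1, 44.3 and 27.7 CPM in control (0.35, SE 0.28). The 5 ZIP7 genes held at most 2 counts in all. Summed over the 25 ZIP genes the level was 328, 288 and 251 CPM in low nitrogen, against 190, 223 and 170 CPM in control. The sums did not overlap, and the difference of the mean log2 sums was 0.57, with a pooled SD of 0.19. It was 0.38 without control replicate 3 and low nitrogen replicate 1. In low nitrogen replicate 1 the 2 tested ZIP10 genes gave 80.0 and 86.0 CPM of the 328 CPM. In control replicate 1 they gave 10.2 and 6.82 CPM. Without them low nitrogen replicate 1 would not lie above the controls, so the separation is not one of the family as a whole.

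**Figure D3:**
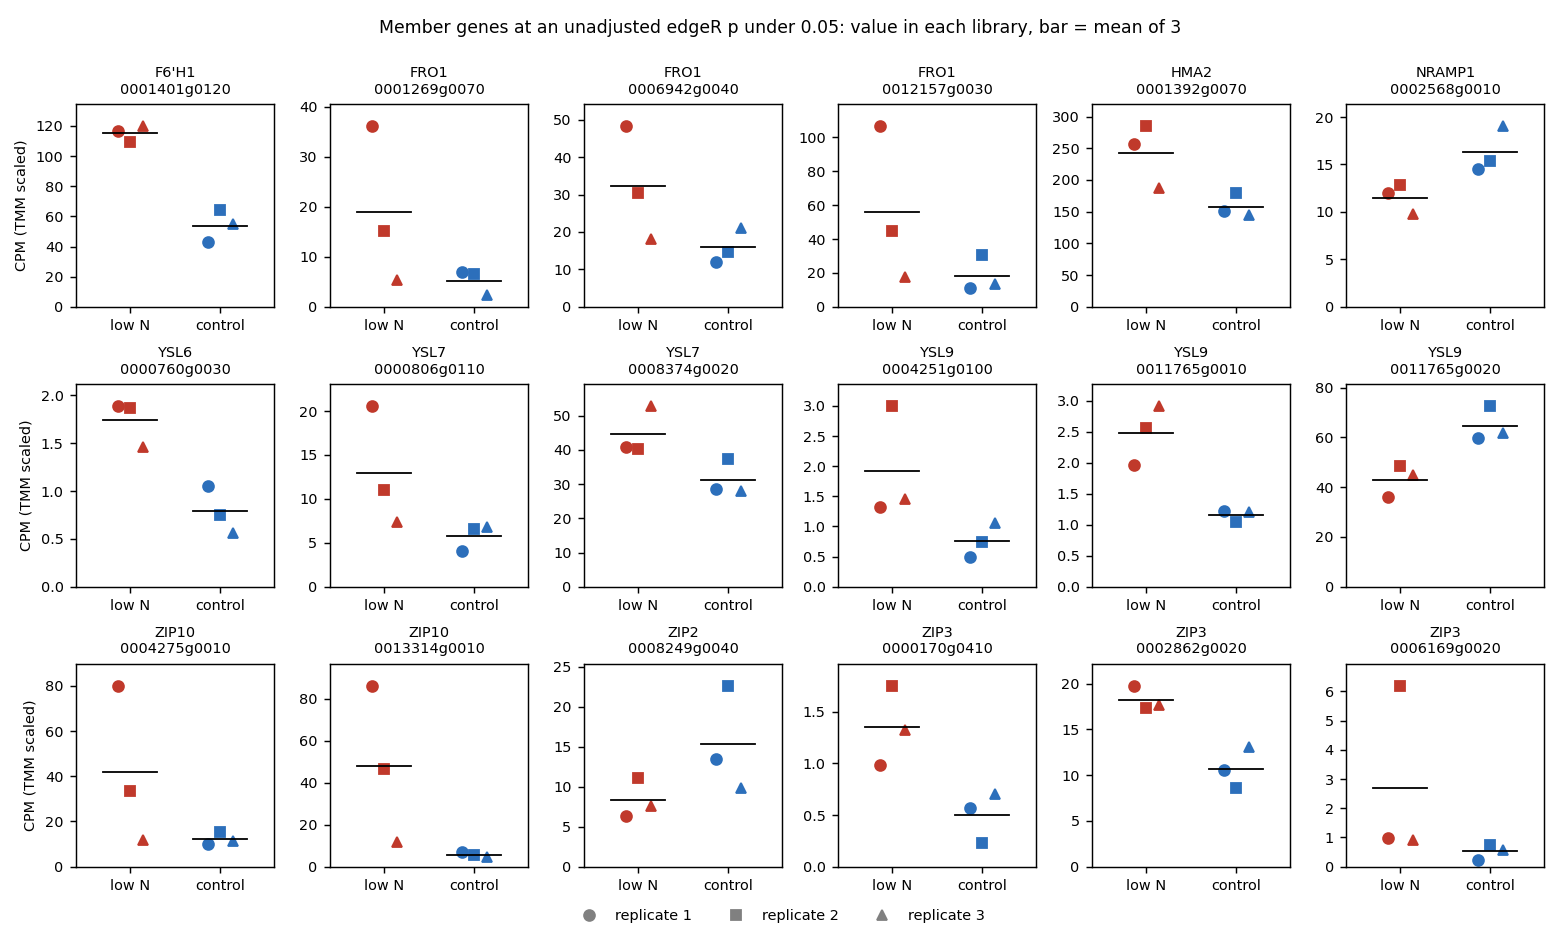
CPM in each library (symbol shape gives the replicate, bars the mean of 3) for the 18 member genes at an unadjusted edgeR p under 0.05, low nitrogen at the left and control at the right of each panel, every axis starting at 0. Both ZIP10 and all 3 FRO1 panels are highest in low nitrogen replicate 1 (circle), whereas F6'H1 and ZIP3 (Nitab4.5_0002862g0020) show low nitrogen values close together.

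NRAMP genes went both ways. NRAMP1, a plasma membrane carrier of manganese and iron, had 4 genes. NRAMP1 (Nitab4.5_0000111g0130) was at 94.5, 43.9 and 17.4 CPM in low nitrogen, against 21.6, 29.2 and 17.2 CPM in control, the order seen in ZIP10 (log2 fold change 1.20, SE 0.55, edgeR unadjusted p 0.0639). It is outside the naming rule and was chosen after its values were seen. NRAMP1 (Nitab4.5_0002568g0010) was at 11.96, 12.8 and 9.78 CPM in low nitrogen, against 14.5, 15.4 and 19.04 CPM in control, with no overlap (-0.50, SE 0.18, unadjusted p 0.023, DESeq2 adjusted p 0.290). The 5 genes of NRAMP3, which releases iron from the vacuole, had log2 values of -0.10 to 0.43, and 0 reached an unadjusted p under 0.05. NRAMP3 (Nitab4.5_0003564g0060) was at 36.0, 45.4 and 41.1 CPM in low nitrogen and 44.1, 48.2 and 39.2 CPM in control. The family sum was 340, 279 and 184 CPM in low nitrogen, against 223, 251 and 211 CPM in control, so that the low nitrogen libraries held both the highest and the lowest value. The difference of the mean log2 sums was 0.18, and it was -0.023 without low nitrogen replicate 1.

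YSL genes lay on both sides of 0, and some of the higher ones had low counts. Of 17 tested, 13 had positive fold changes, the median being 0.30 on the log2 scale. At an unadjusted p under 0.05 there were 5 higher (29.4%, against 6.1% of all genes tested) and 1 lower (5.88%, against 5.66%). YSL9 in rice carries iron bound to nicotianamine. YSL9 (Nitab4.5_0011765g0020) was at 35.9, 48.5 and 44.8 CPM in low nitrogen, against 59.6, 72.6 and 61.7 CPM in control, without overlap (log2 fold change -0.59, SE 0.16, edgeR unadjusted p 0.0071, DESeq2 adjusted p 0.0801). Its neighbour on the same scaffold, YSL9 (Nitab4.5_0011765g0010), lay the other way at 1.96, 2.56 and 2.91 CPM in low nitrogen, against 1.22, 1.05 and 1.20 CPM in control (1.09, SE 0.31, unadjusted p 0.00855). YSL9 (Nitab4.5_0004251g0100) was at 1.33, 2.998 and 1.46 CPM in low nitrogen, against 0.487, 0.750 and 1.06 CPM in control. This gene held 6, 10 and 15 counts in control replicates 1 to 3 and could pass the filter on low counts through low nitrogen alone.

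YSL7 and YSL6 supplied the other 3. YSL7 (Nitab4.5_0008374g0020) was at 40.8, 40.3 and 52.8 CPM in low nitrogen, against 28.6, 37.2 and 27.9 CPM in control (log2 fold change 0.51, SE 0.17, edgeR unadjusted p 0.0206). YSL7 (Nitab4.5_0000806g0110) was at 20.6, 10.99 and 7.35 CPM in low nitrogen, against 4.06, 6.60 and 6.80 CPM in control, highest again in low nitrogen replicate 1 (1.15, SE 0.40, unadjusted p 0.0225). YSL6 (Nitab4.5_0000760g0030), named after a rice manganese carrier, was at 1.89, 1.87 and 1.46 CPM in low nitrogen, against 1.06, 0.750 and 0.566 CPM in control. With 13, 10 and 8 counts in control replicates 1 to 3, it too could pass the filter through low nitrogen alone. YSL6 (Nitab4.5_0000519g0030) was at 72.2 ± 3.56 CPM in low nitrogen and 64.0 ± 3.57 CPM in control (SD, n = 3; log2 fold change 0.17, SE 0.12). Each of these 4 genes had no overlap between groups. The family sum was 317, 369 and 358 CPM in low nitrogen, against 317, 382 and 343 CPM in control, and the groups overlapped throughout.

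The HMA pumps included 1 gene of 13 tested at an unadjusted p under 0.05, a zinc pump higher in low nitrogen. That share was 7.69%, against 6.1% of all genes tested. HMA2 in Arabidopsis loads zinc into the xylem for transport to the shoot. HMA2 (Nitab4.5_0001392g0070) was at 257, 285 and 187 CPM in low nitrogen, against 152, 179 and 144 CPM in control, with no overlap (log2 fold change 0.62, SE 0.20, edgeR unadjusted p 0.0166, DESeq2 adjusted p 0.136). The second HMA2 gene (Nitab4.5_0010295g0010) was at 231, 242 and 163 CPM in low nitrogen, against 156, 187 and 154 CPM in control (0.36, SE 0.20, unadjusted p 0.113), low nitrogen replicate 3 lying within the controls. If the pair are close copies, the counting could have split their reads, so each value is uncertain. HMA5, a copper pump of the root in Arabidopsis, had 9 tested genes with log2 values of -1.13 to 0.47, 0 of them at an unadjusted p under 0.05. The lowest value, of HMA5 (Nitab4.5_0005642g0010), came from 7.98, 6.62 and 5.20 CPM in low nitrogen and 23.8, 14.5 and 5.24 CPM in control. HMA1, a pump of the chloroplast envelope, had log2 values of 0.07 and 0.08.

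VIT1, the vacuolar iron importer, had 2 genes with 0 at an unadjusted p under 0.05. VIT1 (Nitab4.5_0003619g0020) was at 4.83, 7.74 and 7.01 CPM in low nitrogen and 4.63, 6.15 and 6.65 CPM in control. VIT1 (Nitab4.5_0002414g0010) was at 9.51, 7.24 and 6.52 CPM in low nitrogen, against 3.90, 5.10 and 16.2 CPM in control. In this gene control replicate 3 was the highest of all 6 libraries and the other controls were the lowest, and the log2 value of -0.12 was 0.77 without control replicate 3.

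**Figure D4:**
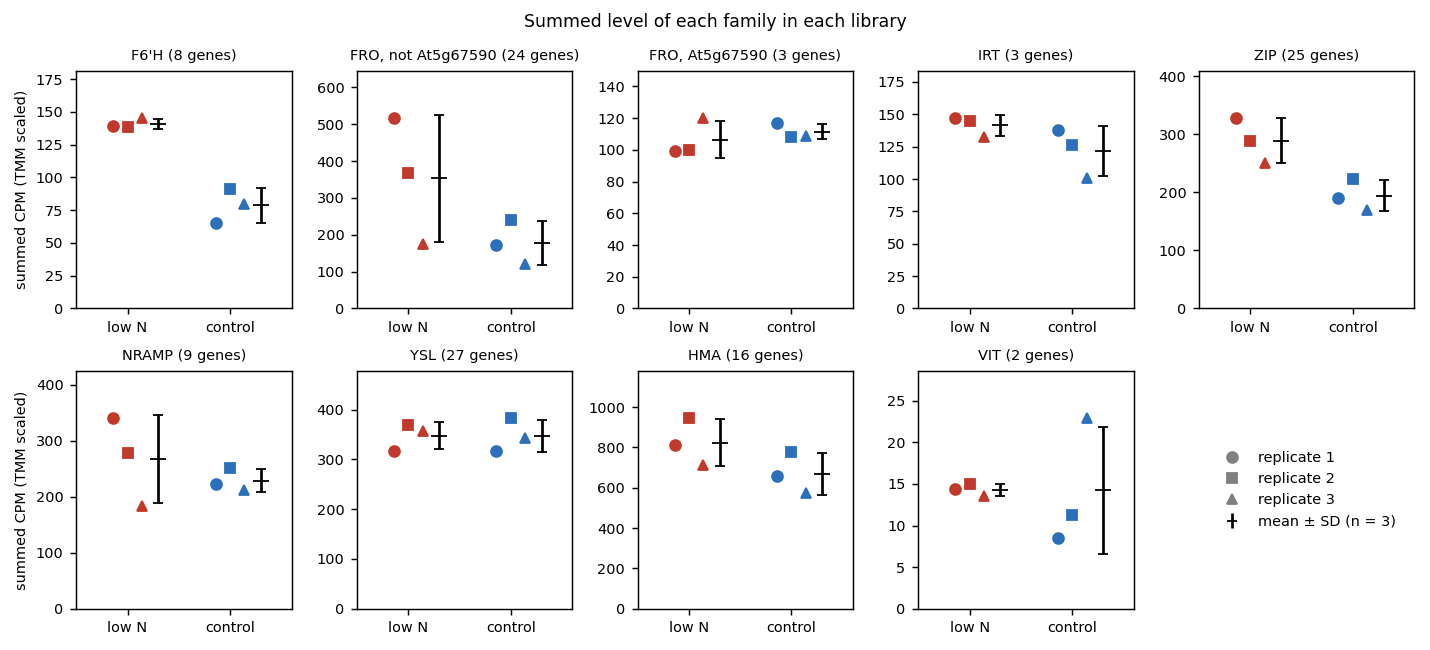
Summed CPM of each family in each library (points, with mean ± SD of 3 libraries beside them), low nitrogen left of control, every axis starting at 0. The F6'H and ZIP sums do not overlap between groups, and the FRO sum without At5g67590 overlaps through low nitrogen replicate 3 at 174 CPM. The ZIP sum of low nitrogen replicate 1 lies above the controls through the ZIP10 genes.

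Across the set, the library with the highest level was a low nitrogen library for 53 of the 76 tested genes (69.7%, against 49.7% of all genes tested). It was replicate 1 for 17, replicate 2 for 26 and replicate 3 for 10. For control replicates 1 to 3 the numbers were 3, 9 and 11. Low nitrogen replicate 2 was thus the highest library for 34.2% of the members, against 12.7% of all genes tested. Replicate 1 was so for 22.4% of the members, against 23.3% of all genes, and replicate 3 for 13.2%, against 13.7%. Low nitrogen replicate 3 was close to the controls in ZIP10 (Nitab4.5_0004275g0010), the scaffold 0001269 reductases and NRAMP1 (Nitab4.5_0000111g0130). This library also moved the DESeq2 calls. Without it DESeq2 called 10 of 80 tested members (12.5%), all higher in low nitrogen, where it called 3.2% of all genes. These were 4 FRO1, 2 ZIP10, 1 F6'H1, 1 NRAMP1, 1 YSL7 and 1 HMA2 gene. Without control replicate 3 the count was 6 of 78 (7.69%), 5 of them higher, and the share of all genes called was 4.29%. The lower one was HMA5 (Nitab4.5_0005642g0010), with a DESeq2 log2 fold change of -1.55 (adjusted p 0.000765). Without each other library the count was 2 or 3, with 0.489% to 0.999% of all genes called. Among these calls were F6'H1 (Nitab4.5_0000215g0020), lower without control replicate 1 (DESeq2 log2 fold change -3.28, adjusted p 0.0246), and ZIP3 (Nitab4.5_0000170g0390), higher without control replicate 3 (4.02, adjusted p 0.0203). Both are sparse genes that were not tested over the 6 libraries, and each then passed the filter on low counts through the group in which it is high, so neither call is independent of the filter.

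Regulators of the iron response were sought by symbol. The 37 rows found were 11 BHLH34, 11 BHLH25, 8 BHLH47 and 6 BHLH100 genes and a fly gene name. The list therefore covers these bHLH symbols only and no partner of theirs. By edgeR 0 of the 27 tested rows passed the adjusted threshold. At an unadjusted p under 0.05 there were 6 higher (22.2%, against 6.1% of all genes tested) and 0 lower (0%, against 5.66%). The 6 were 2 BHLH100, 2 BHLH47, 1 BHLH34 and 1 BHLH25 gene. The median was 0.23 on the log2 scale. DESeq2 called 1 higher and 0 lower, where it called 0.709% and 0.819% of all genes. BHLH100 belongs to the group of bHLH factors that Arabidopsis makes when short of iron. BHLH100 (Nitab4.5_0001167g0080) was at 19.7, 17.99 and 3.82 CPM in low nitrogen, against 4.79, 3.53 and 3.47 CPM in control (log2 fold change 1.82, SE 0.56, edgeR unadjusted p 0.0135, DESeq2 adjusted p 0.0561). BHLH100 (Nitab4.5_0006081g0010) was at 22.8, 19.2 and 4.09 CPM in low nitrogen, against 6.66, 2.78 and 4.32 CPM in control (1.75, SE 0.62). In both genes low nitrogen replicates 1 and 2 were high and replicate 3 lay within the control range. They were chosen for display after their values were seen.

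BHLH34 in Arabidopsis acts upstream of the BHLH100 group. BHLH34 (Nitab4.5_0002916g0050) was at 3.57, 2.37 and 1.73 CPM in low nitrogen, against 0.650, 0.750 and 0.708 CPM in control, and was called by DESeq2 as having risen (log2 fold change 1.85, SE 0.39, edgeR adjusted p 0.332, DESeq2 adjusted p 0.0316). At such low control levels the gene could pass the filter on low counts through low nitrogen alone, so the call is not independent of that filter. The other 10 tested BHLH34 genes were not at an unadjusted p under 0.05. Of all 11, 5 had positive fold changes, and the median was -0.04 on the log2 scale. All 8 BHLH47 genes, named after the Arabidopsis regulator POPEYE, had positive fold changes, the median being 0.49 on the log2 scale, and 2 were at an unadjusted p under 0.05. One row of the list is a fly gene name and no iron regulator, and without it 26 rows were tested with the same 6.

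Other genes of coumarin metabolism lay on both sides of 0. Proton pump genes were sought by symbol too, but the 50 rows found were 35 CYP82C4, 11 TOGT1 and 4 ABCG37 genes. Proton release is therefore not covered. Of 24 tested rows 13 had positive fold changes and 0 passed the adjusted threshold by edgeR. At an unadjusted p under 0.05 there were 2 higher (8.33%, against 6.1% of all genes tested) and 5 lower (20.8%, against 5.66%). DESeq2 called 0 higher and 3 lower, where it called 0.709% and 0.819% of all genes. CYP82C4 oxidises the coumarin fraxetin in Arabidopsis. CYP82C4 (Nitab4.5_0012256g0020) was at 8.61, 5.75 and 8.05 CPM in low nitrogen, against 16.2, 21.5 and 29.3 CPM in control, and was called by DESeq2 as having fallen (log2 fold change -1.58, SE 0.26, edgeR adjusted p 0.255, DESeq2 adjusted p 7.96e-05). Of the 19 tested CYP82C4 rows 5 were at an unadjusted p under 0.05, 2 of them higher and 3 lower. Such a number of rows under 1 symbol may include other enzymes of that family. TOGT1 is a tobacco glucosyltransferase that acts on scopoletin. TOGT1 (Nitab4.5_0006411g0010) was at 4.83, 3.25 and 6.59 CPM in low nitrogen, against 9.26, 17.2 and 9.42 CPM in control (-1.29, SE 0.35, DESeq2 adjusted p 0.0493), and 3 of 3 tested TOGT1 genes had fold changes below 0.

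Iron storage and internal transport genes, 16 tested, had 4 positive fold changes, a median of -0.12 on the log2 scale, and 0 at an unadjusted p under 0.05. The smallest p among them belonged to SUFE2 (Nitab4.5_0000229g0090), an activator of iron-sulfur cluster assembly, at 1.54, 2.44 and 2.43 CPM in low nitrogen, against 3.41, 3.83 and 2.90 CPM in control. The single gene of the ferritin FER2 was at 1.47, 1.87 and 1.66 CPM in low nitrogen, against 1.46, 3.45 and 2.12 CPM in control. The list of zinc, copper and manganese handling held 140 rows. At an unadjusted p under 0.05 there were 6 higher and 13 lower, and the median of the tested rows was -0.10 on the log2 scale. Its smallest p was that of PCS1 (Nitab4.5_0000777g0020), at 3.01, 3.12 and 2.91 CPM in low nitrogen, against 8.69, 10.2 and 7.01 CPM in control. By its locus At5g02190 PCS1 here is an aspartic protease and not a phytochelatin synthase. Without this and other rows of that kind, 84 tested rows remained with 5 higher and 9 lower, where all genes tested gave 6.1% and 5.66%. Of these 84, DESeq2 called 0 higher and 3 lower, where it called 0.709% and 0.819% of all genes. The calls were 2 of the 3 tested CAX4 genes and 1 of the 11 tested MTP9 genes.

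**Figure D5:**
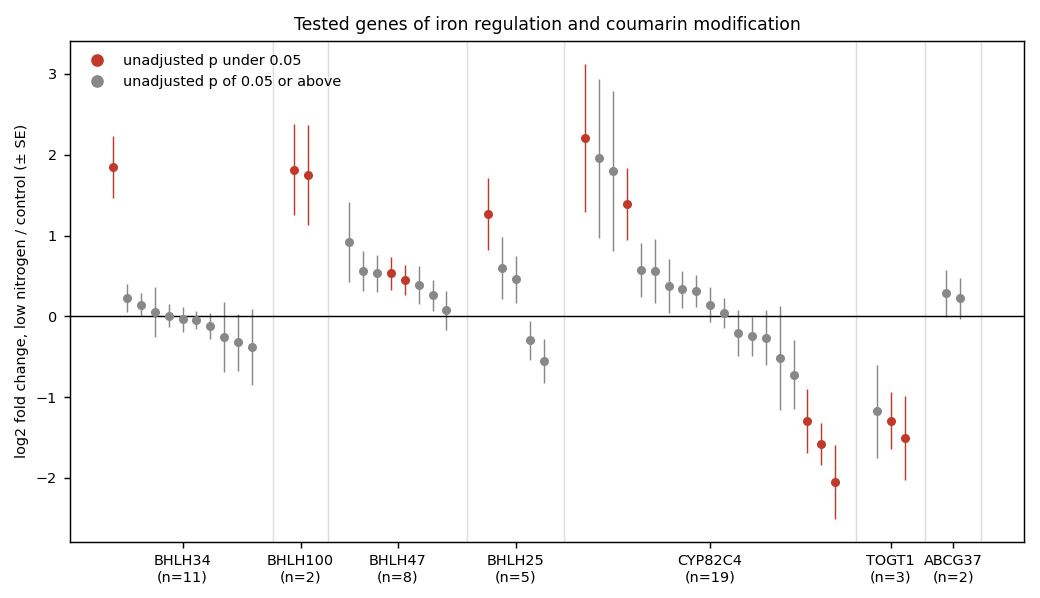
Log2 fold change (low nitrogen over control) with the standard error of the edgeR fit for the tested genes of 4 iron regulator symbols and 3 coumarin symbols (3 libraries per group). Red marks an unadjusted p under 0.05. All BHLH47 and both BHLH100 genes lie above 0, the 3 TOGT1 genes lie below 0, and CYP82C4 genes lie on both sides.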

How the data were processed

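Polyadenylated RNA was sequenced from 3 low nitrogen and 3 control libraries. The deposited values are raw whole-number counts per gene. The submitters' processing notes list HISAT2, an aligner. How reads were counted, whether strand was used and what became of reads with several matches are points not given in the sources used here. Identifiers carry the Nitab4.5 prefix, 0 of them matched the RefSeq table at hand, and no coordinates or sequences are given.

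Genes were filtered with edgeR's filterByExpr, scaled by TMM and tested by the quasi-likelihood functions of edgeR 4.0.16 in R 4.3.3, and p-values were adjusted by Benjamini-Hochberg over 38482 genes. The standard error is the log2 fold change divided by the square root of F. Alternatives were DESeq2 1.42.0, limma-voom (limma 3.58.1), RLE and upper-quartile factors, other filters, a replicate block and leaving out libraries. The edgeR, DESeq2 and limma-voom fits were tested on simulated data. Replicate numbers were not used as pairs in the main fit, and whether they pair the libraries is not given.

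Members and lists were chosen with earlier results of these data known. Named genes were all F6'H1 and ZIP10 rows, in each family the tested gene with the smallest p and the gene with the most CPM, every member at an unadjusted p under 0.05 or called by edgeR or DESeq2, and the smallest p of each related list. Genes named outside this rule, among them the further BHLH100, TOGT1, HMA5 and FER2 genes, were chosen after their values were seen. List rows whose other names give a different gene were identified after the values were seen.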

Additional observations from a re-analysis of the deposited data

How the results depend on the processing

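The count of all genes past the edgeR threshold was 588 with DESeq2 and 0 to 11 with 1 library left out, the 11 arising without control replicate 3. For the members it was 2 with DESeq2, and 0 with limma-voom, the other scalings, filters and leave-outs. Members higher at an unadjusted p under 0.05 numbered 8 to 24 with 1 library left out, where 2.87% to 8.6% of all genes were higher. Members lower numbered 2 to 4 (2.76% to 7.14% of all genes), and 5 with no filter on low counts (5.19% of all genes). The DESeq2 count of members was 2 to 10 with 1 library left out, and that of all genes 191 to 1669. The difference of the mean log2 ZIP sums was 0.38 without control replicate 3 and low nitrogen replicate 1. Replicate numbers were shared by the groups, and deviations of same-numbered libraries correlated at -0.34, 0.13 and -0.26. The labels name no pairing, and these few correlations cannot decide whether there was one. With the replicate block 0 genes passed, and members at an unadjusted p under 0.05 numbered 15 higher and 4 lower. The block gave 4.33% of all genes higher and 3.61% lower at that p, against 6.1% and 5.66% in the main fit. Single genes moved either way. The edgeR unadjusted p of FRO1 (Nitab4.5_0001269g0070) was 0.0026 with the block and 0.0319 without it. That of FRO1 (Nitab4.5_0006942g0040) was 0.0757 with the block and 0.0259 without it. Of 446 recomputed fold changes of 32 named genes, 435 kept direction and side of the threshold, 5 passed it and 6 turned sign. As 0 genes passed in the main fit, no gene could lose a call, and the 435 needed only an unchanged sign. They do not measure how steady the sizes were. FRO1 (Nitab4.5_0001269g0070) counted among them both at 0.60, with the library richest in light-harvesting transcripts dropped from each group, and at 2.29, with low nitrogen replicate 3 dropped. VIT1 (Nitab4.5_0002414g0010) turned to 0.12 with limma-voom, 0.15 with the block, 0.77 without control replicate 3 (-0.46 without control replicate 1, the other end of its leave-one-out range) and 0.60 without that library and low nitrogen replicate 1. In the last setting IRT3 (Nitab4.5_0001367g0030) was at -0.0013, and F6'H1 (Nitab4.5_0000797g0160) was at -0.025 without low nitrogen replicate 2. The cause was not tested. Depth limits the 41 untested members, of 0 to 95 counts.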

Other observations

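ZIP3 (Nitab4.5_0000170g0390), which the filter on low counts left out and which was chosen after its values were seen, held 31, 50 and 7 counts in low nitrogen replicates 1 to 3, against 2, 1 and 4 counts in control replicates 1 to 3. Its neighbour ZIP3 (Nitab4.5_0000170g0410) was among the genes at an unadjusted p under 0.05. ZIP3 (Nitab4.5_0006392g0060), also untested, lay the other way at 8, 4 and 3 counts in low nitrogen and 2, 0 and 52 in control, the counts coming almost wholly from control replicate 3.

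Of the 117 members, 46 carry a number in their identifier that another member shares, on 21 scaffolds. HMA5 (Nitab4.5_0001831g0070) held 7, 6 and 2 counts in low nitrogen and 0, 1 and 0 in control, beside a neighbour (Nitab4.5_0001831g0080) at 28.1, 44.5 and 18.4 CPM in low nitrogen and 23.1, 34.7 and 22.7 CPM in control.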
